A study of Homo sapiens with 6 samples.

Results

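The 596 regions described here are SF3B4 peaks that lay at the 3' ends of introns longer than 2000 nt. They were found among 3660 SF3B4 peaks from HEK293T cells, of which they made up 16.3% (95% Wilson interval 15.1% to 17.5%). Each peak was given the gene of its own strand that held its midpoint, protein-coding genes first, on GENCODE release 29 and hg38. A peak was kept when its midpoint lay 1 to 60 nt before an acceptor, the 3' splice site closest to it among that gene's basic transcripts, the subset that GENCODE marks as representative. The intron was the shortest basic intron ending at that site, and it had to exceed 2000 nt. Another 2234 peaks met the same position rule at introns of 2000 nt or shorter and served as the comparison, and are called shorter-intron peaks.

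HEK293T cells derive from human embryonic kidney and express SV40 large T antigen. In eCLIP, RNA fragments crosslinked to a protein are pulled down with it, sequenced, and set against an input library. The series held 2 libraries made with an antibody against SF3B4, 2 made with an anti-HA antibody against G4PID, a plasmid-borne biotin ligase directed to G-quadruplexes, and 2 input libraries made without antibody. A protocol shared by all 6 libraries describes transfection with the plasmid of G4PID or of the untargeted miniTurboID ligase, 24 h of culture and 30 min of labelling with 500 µM biotin, and does not say which of these steps the SF3B4 and input cells went through. The deposited data gave 1 peak list for each antibody and no values by library, so replicate spread could not be measured and read depth is unknown. Peaks, sites and genes are the units of every test below, which therefore says nothing about the spread between cultures. Each peak carried the authors' log2 fold over input and −log10 p-value, which served to describe, rank and filter peaks within the list and to compare folds within genes.

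SF3B4 is a subunit of SF3b, the part of the U2 small nuclear ribonucleoprotein that clamps the branch point region of an intron. During spliceosome assembly SF1 and the U2AF heterodimer first mark the branch point, the pyrimidine tract and the terminal AG, and the U2 particle then replaces SF1 at the branch point. SF3B4 contacts the intron just upstream of the branch point and holds the U2 particle to the RNA. In long introns the 3' end lies far from the 5' splice site, and the exon that follows is commonly recognised as a unit with its own downstream 5' splice site.

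The sequences at the strongest of these sites are printed first, because they show what the bound 3' ends look like. No genome sequence was used, so an intron end was readable only where another annotated transcript covers it, which held for 209 of the 596 sites (35.1%). The 10 readable sites with the highest log2 fold are given below from GENCODE release 29 transcripts on hg38. Each runs 5' to 3' on the gene's strand over the last 60 nt of the intron and the first 10 nt of the exon. Capitals mark the last 2 bases of the intron, always AG in these 10, and every CTNAC, a short form of the human branch point motif.
CD46, chr1:207770261-207770330, plus strand: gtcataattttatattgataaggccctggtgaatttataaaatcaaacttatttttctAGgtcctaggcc
EWSR1, chr22:29291502-29291571, plus strand: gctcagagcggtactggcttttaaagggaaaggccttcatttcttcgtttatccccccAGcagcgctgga
ETNK1, chr12:22671212-22671281, plus strand: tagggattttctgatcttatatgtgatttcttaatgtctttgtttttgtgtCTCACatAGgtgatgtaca
XPO6, chr16:28152776-28152845, minus strand: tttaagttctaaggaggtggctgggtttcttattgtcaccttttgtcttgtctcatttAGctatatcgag
RNF31, chr14:24155097-24155166, plus strand: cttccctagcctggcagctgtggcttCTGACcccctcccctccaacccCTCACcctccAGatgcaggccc
DCAF8, chr1:160218959-160219028, minus strand: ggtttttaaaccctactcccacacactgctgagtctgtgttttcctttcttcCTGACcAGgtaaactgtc
RPL23, chr17:38850466-38850535, minus strand: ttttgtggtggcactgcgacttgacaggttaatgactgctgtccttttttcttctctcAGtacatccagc
DDX46, chr5:134781073-134781142, plus strand: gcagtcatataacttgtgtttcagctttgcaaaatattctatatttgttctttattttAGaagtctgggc
TENT2, chr5:79645063-79645132, plus strand: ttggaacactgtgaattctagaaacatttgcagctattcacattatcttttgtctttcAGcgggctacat
TIA1, chr2:70224620-70224689, minus strand: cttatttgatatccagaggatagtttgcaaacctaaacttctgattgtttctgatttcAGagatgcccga
CTNAC was present in 3 of these 10 windows, those of ETNK1, RNF31 and DCAF8. RNF31, which encodes the catalytic subunit of the linear ubiquitin ligase, had it 2 times, with the A 31 and 9 nt upstream of the exon. The A lay 6 nt upstream at ETNK1 and 5 nt upstream at DCAF8, where the peak did not reach it. In positions 3 to 25 upstream of the exon, the share of C or T was lowest at CD46, at 60.9%, and highest at RPL23, at 91.3%.

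The readable sites at the longest introns outside that group are shown for contrast, for 3 introns of 30440 nt or more.
JPX, chrX:73998708-73998777, plus strand: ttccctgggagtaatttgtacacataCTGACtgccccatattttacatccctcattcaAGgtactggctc
PCNX2, chr1:233057281-233057350, minus strand: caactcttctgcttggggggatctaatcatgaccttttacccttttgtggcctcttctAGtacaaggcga
C7orf55-LUC7L2, chr7:139376002-139376071, plus strand: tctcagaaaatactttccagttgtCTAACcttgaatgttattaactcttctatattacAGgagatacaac
JPX, a long noncoding RNA of the X inactivation centre, ended its intron of 51393 nt with a CTNAC whose A lay 31 nt upstream. C7orf55-LUC7L2, a read-through form of the splicing factor gene LUC7L2, held the full CTAAC with its A 33 nt upstream. PCNX2, which encodes a pecanex family membrane protein, had no CTNAC and no AG in the window other than the terminal one.

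The 596 peaks lay at 596 different splice sites in 524 genes, out of 1884 genes with any SF3B4 peak. In 460 genes there was 1 such peak, in 57 there were 2, in 6 there were 3 and in 1 there were 4. Protein-coding genes held 578 of them and noncoding genes or transcribed pseudogenes 18. For 34 peaks the midpoint lay in 2 or more overlapping protein-coding genes of the strand, so their gene is uncertain. For 242 peaks (40.6%) no other SF3B4 peak was listed in the gene, against 578 of the shorter-intron peaks (25.9%), a difference that was not tested.

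Intron lengths had a median of 3731 nt (quartiles 2748 and 6390 nt) and reached 69661 nt, with 17 introns above 20000 nt. The authors' log2 fold had a median of 3.93 (quartiles 3.47 and 4.58) and a maximum of 6.40. The shorter-intron peaks had the same median, 3.93, with quartiles 3.51 and 4.54. The median −log10 p-value was 7.72 at long introns and 9.08 at shorter ones. Values were coarse, since 461 of the 596 peaks (77.3%) shared their pair of fold and p-value with another of the 596. The most frequent −log10 p-value, 15.7, was held by 27 of them and by 190 shorter-intron peaks, and may be a numeric limit. The order of genes with close folds is therefore not fixed by these values.

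CD46, the membrane cofactor of complement regulation, had the highest log2 fold, 6.40, at the end of an intron of 2497 nt. Its peak covered 43 nt past the site, and the exon there is 42 nt long and alternative, meaning that another basic intron of the gene spans it. KHDRBS1, which encodes the RNA-binding protein Sam68, reached 5.95 with a peak of 47 nt centred 37 nt upstream of the exon. SRSF11, an SR-related splicing factor gene, also reached 5.95, at an intron of 6582 nt. EWSR1, an RNA-binding protein gene of the FET family, followed at 5.86 before an alternative exon of 38 nt. CSNK1E, casein kinase 1 epsilon, stood at 5.82. ETNK1, ethanolamine kinase, stood at 5.81 at an intron of 10066 nt, with a midpoint 1 nt from the exon.

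The next genes were XPO6, the exportin of actin, at 5.76, SUZ12P1 at 5.74, RNF31 at 5.71, and DCAF8, a substrate receptor of CUL4 ubiquitin ligases, at 5.69. SUZ12P1 is a pseudogene copy of SUZ12, so reads of either locus may have been counted there. RPL23, a protein of the large ribosomal subunit, had 5.69. DDX46, the human counterpart of yeast Prp5 and a helicase that acts with the U2 particle, had 5.66. EIF3B, a subunit of initiation factor eIF3, and TENT2, a cytoplasmic poly(A) polymerase, had the same value. TIA1, an RNA-binding protein of splicing and stress granules, had 5.64, and RPL24 had 5.61. HNRNPA3 had 5.53, TTL, tubulin tyrosine ligase, had 5.50, DAZAP1, an RNA-binding protein gene, had 5.48, and HUWE1, a HECT ubiquitin ligase, had 5.47. MAN1B1, an endoplasmic reticulum mannosidase gene named for its tie, had the same fold as HUWE1 and a crossing peak, and is not in the counts that follow. Of these 20 leading peaks, 13 ended inside the intron and 7 crossed into the exon. Coding exons followed in 19 of the 20, alternative exons in 4, and the intron was 5000 nt or shorter in 15. Among all 596 peaks, 256 ended inside the intron and 340 crossed. Coding exons followed 548 of the 596 (91.9%) and alternative exons 64 (10.7%), and 203 introns were longer than 5000 nt. The differences between the 20 and all 596 were not tested.

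**Figure D1:**
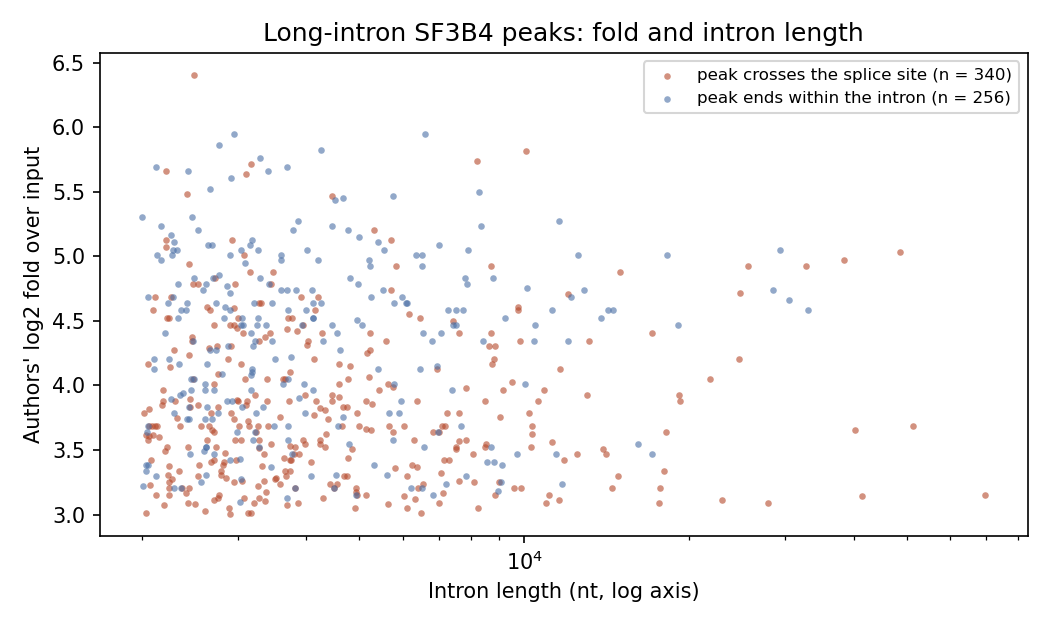
Authors' log2 fold over input (vertical axis) against intron length in nt (log axis) for the 596 long-intron SF3B4 peaks, coloured by whether the peak crosses the splice site (340) or ends within the intron (256). Peaks at introns above 20000 nt are few, 17, and crossing peaks sit lower (median 3.69) than peaks ending in the intron (median 4.47).

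The longest introns carried peaks of low to high fold. The 17 peaks at introns above 20000 nt had a median log2 fold of 4.58 (quartiles 3.65 and 4.93). Medians were 3.90 at 2001 to 3000 nt, 3.93 at 3001 to 5000 nt, 3.88 at 5001 to 10000 nt and 3.90 at 10001 to 20000 nt. This difference was not tested. The 5 longest introns are given here. STRN3, a striatin subunit of protein phosphatase 2A, had the longest intron, 69661 nt, with a log2 fold of 3.15. JPX followed with 51393 nt and 3.69. RBM6, an RNA-binding protein gene, had an intron of 48731 nt and a log2 fold of 5.03, the highest of these 5. SLC1A3, a glutamate transporter gene, had 41441 nt and 3.14. SMAD9, a signal transducer of bone morphogenetic proteins, had 40240 nt and 3.65. All 5 of these peaks crossed the splice site, and their midpoints lay 3 to 28 nt upstream.

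CSNK1D, casein kinase 1 delta, had the most such peaks, 4, at 4 of its 5 long-intron sites, with log2 folds of 4.76, 4.61, 4.58 and 3.96. The last of these had the highest −log10 p-value of all 596, 400, and was 175 nt wide. The maximum at shorter introns was also 400, so this value may be a limit of the scale. SRSF11 had 3 peaks at its 8 long-intron sites, at 5.95, 5.05 and 5.05, and no peak at a shorter intron. GNAS, the gene of the stimulatory G protein alpha subunit, had 3 at 6 sites, at 4.40, 4.22 and 3.13, and each of these 3 preceded an alternative exon. FANCA, a Fanconi anaemia core complex gene with 18 SF3B4 peaks in all, had 3 at 17 long-intron sites, at 4.71, 4.01 and 3.88, and 13 at shorter introns. RBM39, a splicing factor gene related to U2AF, had 3 at 10 sites, at 4.58, 3.74 and 3.43. ENOSF1 had 3 at 7 sites, at 3.85, 3.50 and 3.25, and AL031708.1, a protein-coding gene known by its clone name, had 3 at 10 sites, at 3.97, 3.82 and 3.53.

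Where along the intron end the peaks lay was compared next. The midpoint was a median of 29 nt upstream of the exon at long introns (quartiles 15 and 37 nt) and 30 nt at shorter ones (quartiles 18 and 38 nt). A midpoint 21 to 40 nt upstream was found for 281 of 596 long-intron peaks (47.1%) and 1146 of 2234 shorter-intron peaks (51.3%). The odds ratio was 0.85 (95% interval 0.71 to 1.01), which did not pass the threshold of 0.05 (two-sided Fisher's exact test, adjusted p = 0.165). Adjusted p-values come from Benjamini-Hochberg over the 16 main tests. Under an alternative setting the adjustment covered the tests of that setting alone. The position 36 nt upstream of the exon was covered by 591 of the long-intron peaks (99.2%), a maximum shared with the positions 34 and 33 nt upstream, and by 98.5% of the shorter-intron peaks, their single maximum.

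The peaks differed in width. At long introns 318 of 596 (53.4%) were wider than 71 nt, the median of the whole SF3B4 list, against 1030 of 2234 (46.1%) at shorter introns. The odds ratio was 1.34 (95% interval 1.12 to 1.60, two-sided Fisher's exact test, adjusted p = 0.0272). The median width was 74 nt at long and 68 nt at shorter introns. The upstream edge lay at a median of 59 nt from the exon in both sets, whereas the peaks covered a median of 11 exonic nt at long introns and 2 at shorter ones. The width call was lost at a threshold of 5000 nt (odds ratio 1.39, Fisher's exact test, adjusted p = 0.158) and at a −log10 p-value of at least 10 (1.59, adjusted p = 0.0534), where the ratio was larger. It was also lost, with a smaller ratio, with midpoints held to 10 to 60 nt (1.21, Fisher's exact test, adjusted p = 0.222) and at a log2 fold of at least 4 (1.15, adjusted p = 0.666). At the fold and p-value cutoffs the width limit was the median of the peaks kept, not 71 nt. Those ratios are therefore not the same measure as 1.34. The median −log10 p-value also differed between the sets, as given above, and its part in the width was not tested.

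Whether a peak reached the exon was examined after the widths had been seen. The peak crossed the splice site in 340 long-intron cases (57.0%, Wilson interval 53.0% to 61.0%) and in 1145 shorter-intron cases (51.3%, 49.2% to 53.3%). The odds ratio of 1.26 (95% interval 1.05 to 1.52) just missed the threshold (two-sided Fisher's exact test, adjusted p = 0.0506). It passed with any overlap of the window counted (odds ratio 1.32, Fisher's exact test, adjusted p = 0.0131). It also passed with 1 peak kept per gene, the one of highest fold across long and shorter introns (1.55, Fisher's exact test, adjusted p = 0.00110). Crossing peaks had the lower median fold in both sets, as given below, and what that choice did to the ratio was not tested. By intron length the crossing share was 54.9% at 2001 to 3000 nt, 56.5% at 3001 to 5000 nt, 57.2% at 5001 to 10000 nt, 60.4% at 10001 to 20000 nt and 76.5% above 20000 nt. The last of these rests on 17 peaks (Wilson interval 52.7% to 90.4%), and its interval overlaps all the others.

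Split by crossing, a division that itself favours wide peaks centred near the exon among the crossing ones, the long-intron peaks had the following medians. The 256 that ended inside the intron had a median width of 45 nt, a midpoint 37 nt upstream and a log2 fold of 4.47. The 340 crossing peaks had a median width of 93 nt, a midpoint 17 nt upstream, 31 exonic nt covered and a log2 fold of 3.69. Shorter-intron peaks, split likewise, had a median log2 fold of 4.34 for those within the intron and 3.69 for those crossing.

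**Figure D2:**
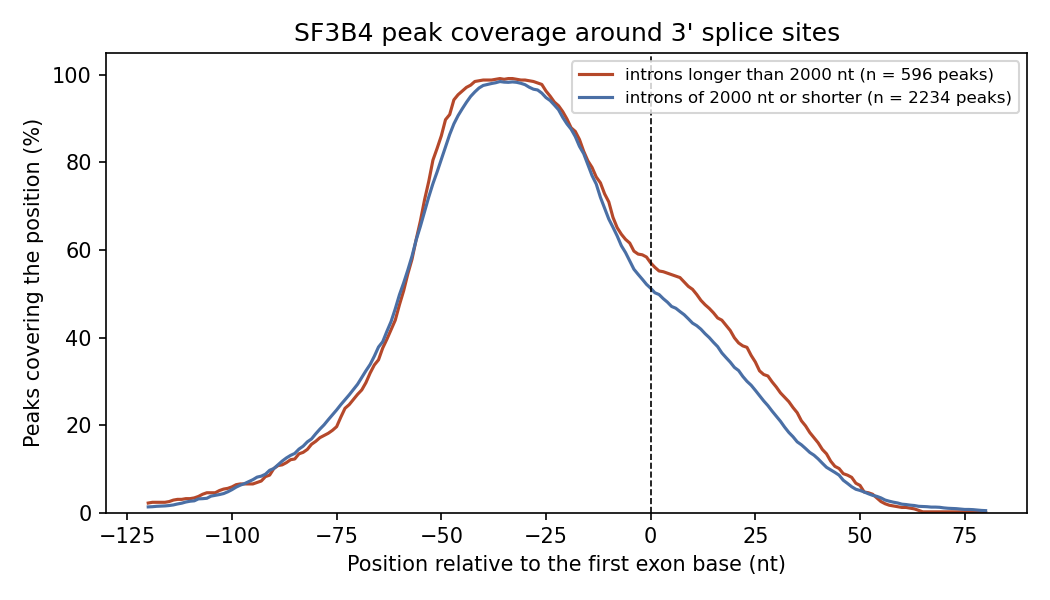
Percent of peaks covering each position (vertical axis) by distance in nt from the first exon base (horizontal axis, negative in the intron) for 596 long-intron and 2234 shorter-intron SF3B4 peaks. At 36 nt upstream 99.2% of long-intron and 98.5% of shorter-intron peaks cover the position, and 20 nt into the exon 39.9% of long-intron and 33.2% of shorter-intron peaks still cover it.

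How often a long intron carried a peak was asked over all annotated 3' splice sites of the 1884 genes with an SF3B4 peak. Of 8396 sites at long introns 596 had one (7.1%), against 2234 of 21733 sites at shorter introns (10.3%), an odds ratio of 0.67 (95% interval 0.61 to 0.73) before genes were matched. With genes as strata, which compares sites of the same RNA, the odds ratio was 0.90 (95% interval 0.80 to 0.997) over the informative genes and did not pass the threshold (Cochran-Mantel-Haenszel test, n = 1270 genes, adjusted p = 0.115). The share was 10.8% at introns up to 200 nt, 12.4% at 201 to 500 nt, 9.41% at 501 to 1000 nt and 8.18% at 1001 to 2000 nt. It was 7.34% at 2001 to 3000 nt, 8.10% at 3001 to 5000 nt, 7.37% at 5001 to 10000 nt, 5.40% at 10001 to 20000 nt and 3.17% above 20000 nt. These shares were not matched by gene. When a site was given its longest basic intron in place of its shortest, the within-gene odds ratio was 1.01 (n = 1308 genes, adjusted p = 0.924), on the other side of 1. Of the 596 long-intron sites with a peak, 92 were the end of more than 1 basic intron. The within-gene ratio passed the threshold at a length threshold of 1000 nt (0.87, Cochran-Mantel-Haenszel test, n = 1422 genes, adjusted p = 0.0230) and at a −log10 p-value of at least 10 (0.73, n = 507 genes, adjusted p = 0.0139).

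**Figure D3:**
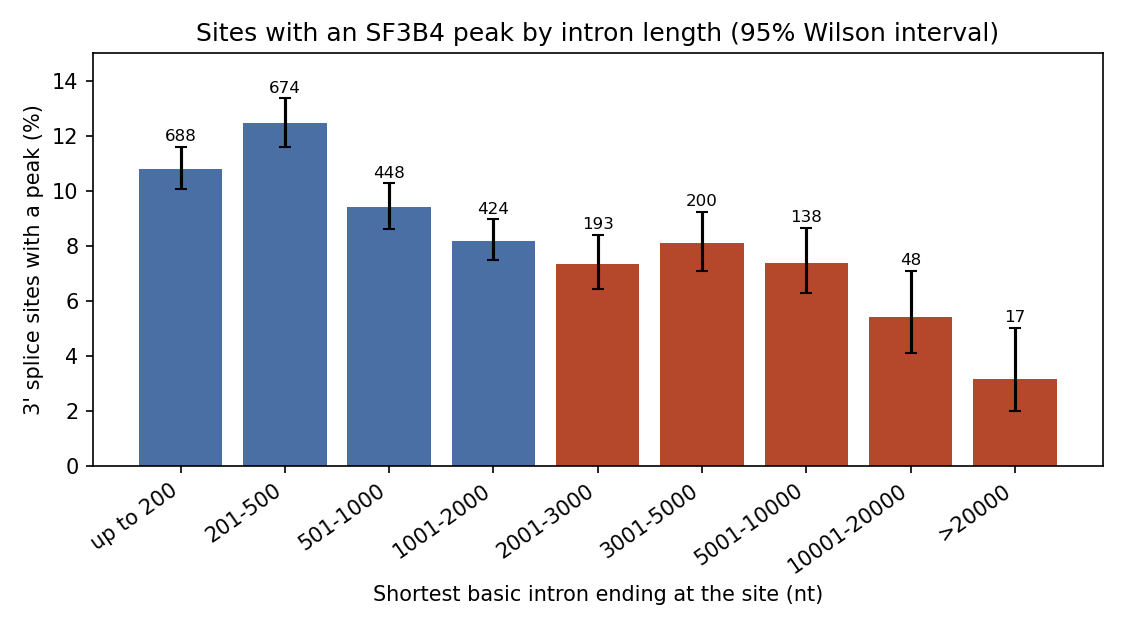
Percent of annotated 3' splice sites with an SF3B4 peak (vertical axis, 95% Wilson interval, number of peaks above each bar) by length in nt of the shortest basic intron ending there, in genes with an SF3B4 peak. The share is 12.4% at 201 to 500 nt and 3.17% above 20000 nt.

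In 208 genes both kinds of intron carried a peak, which allowed fold to be compared within the same RNA. The median log2 fold was higher at long introns in 98 genes and lower in 109, with 1 tie, and the median difference, long minus shorter, was −0.15 (quartiles −0.74 and 0.57). An exact two-sided sign test over genes did not pass the threshold (adjusted p = 0.600). Sites too weak to be listed do not enter this comparison. RPL23 had the largest positive difference, 2.68, with 5.69 at its long and 3.01 at its shorter intron. KHDRBS1 differed by 2.21, with 5.95 at its long and 3.74 at its shorter intron, and HUWE1 by 1.83, with 5.47 and 3.64. On the other side DHX9, an RNA helicase gene, had medians of 3.30 at long and 5.40 at shorter introns, a difference of −2.10. RANGAP1, the GTPase activator of Ran, had 3.20 at its long and 4.82 at shorter introns, a difference of −1.61.

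**Figure D4:**
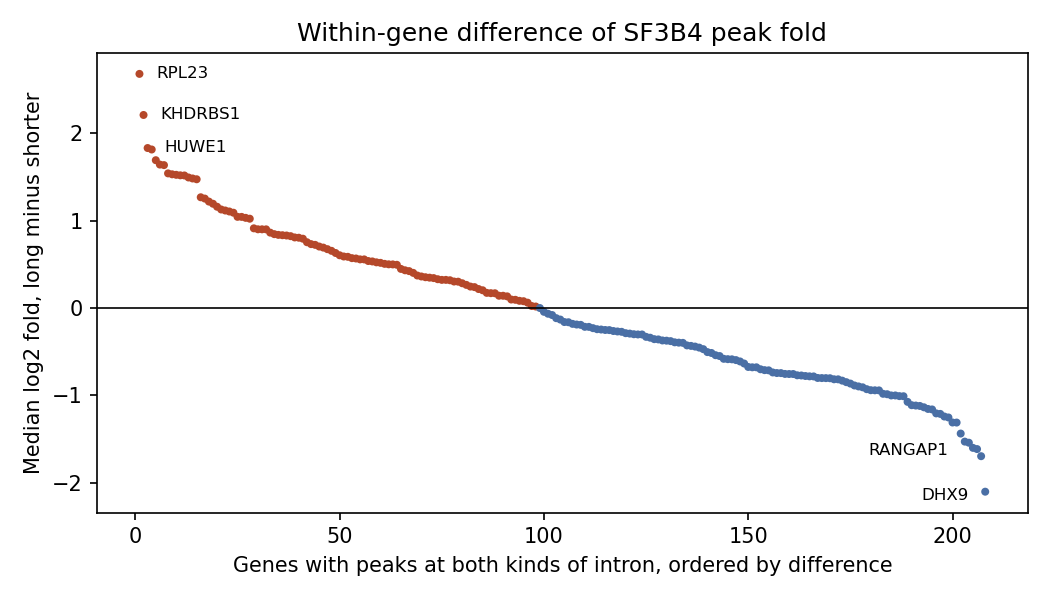
Difference in median log2 fold, long minus shorter introns (vertical axis), for each of the 208 genes with peaks at both, ordered by size along the horizontal axis. Red points, 98 genes, are higher at long introns and the largest is RPL23 at 2.68, while DHX9 is lowest at −2.10.

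Within the genes that had a long-intron peak, sites with a peak were set against the 3007 long-intron sites without one. The intron was the first of a transcript for 95 of the 596 sites with a peak (15.9%) and 411 sites without (13.7%), but matched within genes the odds ratio was 0.69 (95% interval 0.53 to 0.91, Cochran-Mantel-Haenszel test, n = 362 genes, adjusted p = 0.0506). The pooled shares and the within-gene ratio thus point in opposite directions. The following exon was alternative for 64 sites with a peak (10.7%) and 438 without (14.6%), an odds ratio of 0.66 (95% interval 0.48 to 0.92, n = 223 genes, adjusted p = 0.0506). It was coding for 548 sites with a peak (91.9%) and 2773 without (92.2%), with a within-gene odds ratio of 1.74 (95% interval 1.08 to 2.79, n = 141 genes, adjusted p = 0.0665). None of these 3 passed the threshold in the Cochran-Mantel-Haenszel test after adjustment, while the unadjusted values were 0.00974, 0.0125 and 0.0208 for first, alternative and coding. The alternative exon and coding exon tests did pass when the longest intron at the site or a threshold of 1000 nt was used.

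Sequence was compared over the readable windows of 60 nt, 209 at long introns with a peak, 392 at long introns of the same genes without one and 1084 at shorter introns with a peak. In that order the readable windows came from 596, 3007 and 2234 sites, so the 3 sets were unequally readable. What this did to the comparisons was not tested. The readable members had a median log2 fold of 3.84, and the unreadable ones 4.01. An annotated AG ended the intron in 208 of the 209 windows, the exception being a GNAS site whose annotated intron of 4542 nt ended in TG. The motifs searched, on the transcript strand only, were CTNAC, its narrower form CTAAC, a run of 8 or more C or T, and a run of 4 or more G. The first of these was in 61 windows with a peak (29.2%), against 25% of long-intron windows without a peak and 33.5% of shorter-intron windows with one. The within-gene odds ratio against long-intron windows without a peak was 1.26 (95% interval 0.70 to 2.27, Cochran-Mantel-Haenszel test, n = 48 genes, adjusted p = 0.600). Against shorter-intron windows it was also 1.26 (95% interval 0.57 to 2.80, n = 25 genes, adjusted p = 0.625). In 60 of the 61 windows the A of a CTNAC lay inside the peak, at a median of 25 nt upstream for the copy nearest the exon, and in 38 windows an A lay 18 to 40 nt upstream. The position 25 nt upstream was covered by 96.3% of all long-intron peaks. The count of 60 therefore does not show that peaks were placed by the motif.

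CTAAC was in 13 long-intron windows with a peak (6.22%), against 4.85% of those without and 4.24% of shorter-intron windows. Within genes its odds ratio with against without a peak was 3.12 (95% interval 0.90 to 10.8, Cochran-Mantel-Haenszel test, n = 12 genes, adjusted p = 0.214). With 1 peak kept per gene it was 8.15 from 9 informative genes, which did not pass after adjustment. There the gene's other long-intron sites were all counted as without a peak, also those that had one. A run of 8 or more C or T was in 56.0%, against 56.6% and 58.9%. Its within-gene odds ratio with against without a peak was 0.82 (95% interval 0.49 to 1.39, Cochran-Mantel-Haenszel test, n = 61 genes, adjusted p = 0.600). At long against shorter introns it was 1.65 (95% interval 0.81 to 3.39, n = 34 genes, adjusted p = 0.325), opposite in direction to the pooled shares. A run of 4 or more G was in 12.4%, against 11.5% of long-intron windows without a peak and 22.1% of shorter-intron windows with one. Within genes the last odds ratio was 0.81 (95% interval 0.37 to 1.79, Cochran-Mantel-Haenszel test, n = 23 genes, adjusted p = 0.625). The median G or C content of the windows was 43.3% at long introns with a peak, 40% at those without and 53.3% at shorter introns, and its part in the G runs was not tested. None of the 8 motif comparisons passed the threshold in the Cochran-Mantel-Haenszel test. The share of C or T in positions 3 to 25 upstream of the exon had medians of 73.9%, 69.6% and 73.9%, and the next AG upstream lay at medians of 33, 33 and 31 nt, in the same order of the 3 sets.

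The genes with long-intron peaks were counted in 11 gene lists, as descriptions with no test and no matching for RNA abundance, whose part was not tested. Every list with a long-intron peak also held genes with a shorter-intron peak, so these counts are not particular to long introns. Such genes were 60 of all 75 listed for cytosolic ribosomal proteins, 15 of 24 for hnRNP proteins and 5 of 42 for cytoskeleton and motors. No share over all genes was computed for shorter introns. Among hnRNP proteins 5 of 17 genes with an intron longer than 2000 nt had such a peak, beside 506 of all 16015 protein-coding genes with such an intron (3.16%). They were led by HNRNPA3 at 5.53, HNRNPH3 at 5.15, PCBP2 at 5.05 and HNRNPC at 4.31. Among SR proteins and co-activators the count was 3 of 12, with SRSF11 at 5.95, SREK1 at 4.37 and TRA2A at 4.17. SF3b, SF3a and other U2 partners, the machinery SF3B4 belongs to, had 4 of 22, with DDX46 at 5.66, RBM39 at 4.58, U2SURP at 4.45 and SF1, the branch point binding protein, at 3.43.

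Cytosolic ribosomal proteins had 8 of 31, with RPL23 at 5.69, RPL24 at 5.61, RPL35A at 5.09 and RPL30 at 4.97. These genes have many processed pseudogenes, and how reads mapping to several places were treated is not stated. Translation factors had 4 of 27, with EIF3B at 5.66, EEF1G and EIF4G1 at 5.01 each and EIF3A at 4.13. Nuclear transport and pore genes had 10 of 47, with XPO6 at 5.76, IPO9 at 5.24, XPO5, the exporter of microRNA precursors, at 5.01 and NUP98 at 4.88.

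DNA replication and repair genes had 8 of 49, with FANCI at 4.93, ATM, the kinase of the double-strand break response, at 4.79, POLD1 at 4.74 and FANCA at 4.71. Chromatin remodellers and histone modifiers had 7 of 62, with TRRAP at 4.97, SMARCB1 at 4.58, KDM4A at 4.34 and KMT2D at 3.88. Ubiquitin ligases and deubiquitinases had 4 of 41, with HUWE1 at 5.47, CUL1 at 5.31 and MYCBP2 at 3.26 among them. Cytoskeleton and motor genes had 2 of 37, DYNC1LI2 at 4.69 and MAP4 at 3.24. Genes characteristic of other tissues had 0 of 27, and a gene without a listed peak is not shown to be unbound.

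**Figure D5:**
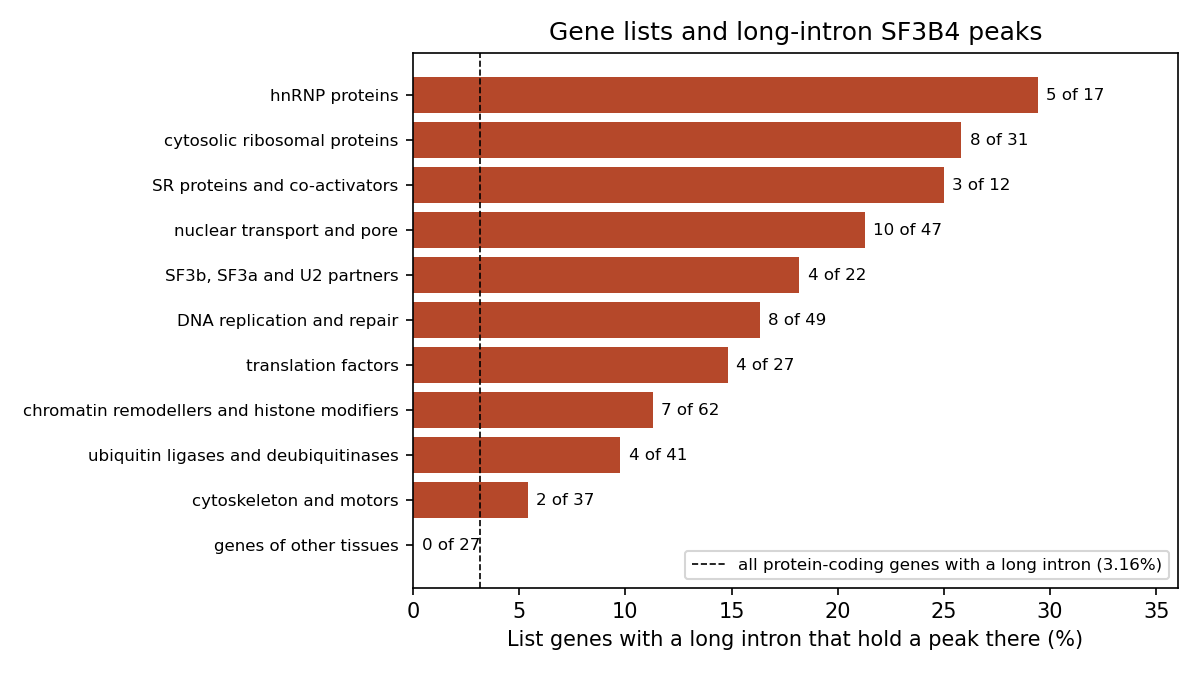
Percent of list genes with an intron longer than 2000 nt that held an SF3B4 peak at such an intron (horizontal axis, counts beside each bar) for 11 gene lists, with the share over all protein-coding genes with a long intron (3.16%) as a dashed line. The list of hnRNP proteins is highest with 5 of 17, and the genes of other tissues have 0 of 27.

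Of the 270 peaks in the G4PID list, 0 lay within 100 nt of a long-intron SF3B4 peak, against 2 (0.741%) within 100 nt of a shorter-intron peak and 4 (1.48%) within 100 nt of any SF3B4 peak. A G4PID peak was listed in 5 of the 524 genes with a long-intron peak (0.954%), against 16 of the 1270 genes with a shorter-intron peak (1.26%). Over all 1884 genes with an SF3B4 peak the count was 24 (1.27%). The 5 genes with a long-intron peak were 3.94% of the 127 genes with a G4PID peak and held 7 G4PID peaks. Genes with a shorter-intron peak were 12.6% of those 127, and genes with any SF3B4 peak 18.9%. These counts were not tested. PCBP2, a poly(C)-binding protein gene, had a long-intron SF3B4 log2 fold of 5.05 and a G4PID log2 fold of 6.07. In the same order, YBX3 had 4.95 and 5.54, SNRNP70, a U1 particle gene, had 5.05 and 4.74, OTUB1 had 4.74 and 4.12, and CTTN had 4.64 and 3.68. The 2 folds come from separately scored lists and are not comparable in size. The 3 G4PID peaks that lay inside a long intron ending in an SF3B4 peak were all in the OTUB1 intron of 3687 nt, 1191 to 3226 nt from the SF3B4 peak. OTUB1 encodes a deubiquitinase.

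At the edges of the selection, 21 peaks had introns of 2001 to 2100 nt, with a median log2 fold of 3.62, and 35 peaks just outside had introns of 1901 to 2000 nt, with a median of 3.99. The 5 peaks 59 or 60 nt upstream had a median of 4.27, and 2 long-intron peaks 61 or 62 nt upstream had 3.69 and 4.69. Another 3 long-intron peaks had their midpoint on the first exon base and were not included.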

How the data were processed

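The series held SF3B4, G4PID and input eCLIP libraries of HEK293T cells, 2 each, and 1 peak list per antibody. The sample labels do not say which input library each list was set against. The submitters' processing notes name cutadapt 3.4, STAR 2.7.0d, hg19 and hg38. Peak caller, molecular identifiers and joining of libraries: not given in the sources used here. Peak lists deposited by the authors have no header, and the first value, taken as a −log10 p-value, and the next, taken as log2 fold, were both computed by the authors against input before deposit. That reading rests on usual eCLIP column order and on the value ranges. How far input depth shaped either value was not tested.

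Peaks were placed on GENCODE release 29. Sequence was rebuilt from its transcripts, 205759 of which were laid on the genome with 0 disagreeing bases. Shares were compared by Fisher's exact test, or by a Cochran-Mantel-Haenszel test with genes as strata and Mantel-Haenszel odds ratios, and folds within genes by an exact sign test, with Benjamini-Hochberg adjustment over 16 tests. Neighbouring peaks of a gene share their RNA, and the Fisher tests do not account for that. Wilson intervals cover counting error only. The tests were checked on simulated data. Software was Python 3.11.15 with numpy 2.4.6, scipy 1.17.1 and, for plots, matplotlib 3.10.9.

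The regions, the 11 gene lists and the tests were chosen with earlier results of these data known, and the crossing test was added after the widths were seen. Genes were named by rule: the 20 with the highest fold, the 5 longest introns, the genes with most peaks (ties at 3 included), those with a G4PID peak inside the intron, up to 4 per list, and the 3 largest within-gene differences each way. Some genes that the rule names are not reported here. Other genes sharing a G4PID peak were named after their values were seen. The 12 alternatives changed the intron definition, length threshold, position window, peak cutoffs, peak merging or overlap, gene set, 1 peak per gene, and the sequence and midpoint windows. Where 1 peak per gene was kept, it was the one of highest fold.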

Additional observations from a re-analysis of the deposited data

How the results depend on the processing

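No paired analysis was possible because each antibody has a single peak list without values by library, and for the same reason no replicate could be left out. With 1 peak per gene no within-gene fold comparison exists. The number of long-intron peaks was 1020 at a threshold of 1000 nt, 203 at 5000 nt, 280 at a log2 fold of at least 4 and 163 at a −log10 p-value of at least 10. The wider peaks lost their call at 5000 nt (odds ratio 1.39) and with midpoints at 10 to 60 nt (1.21). They also lost it at the fold minimum (1.15) and at the p-value minimum (1.59). The midpoint, fold and p-value settings tested fewer peaks, while at 5000 nt the same peaks were divided differently. At the fold and p-value minimum the width cutoff was the median width of the peaks kept. Crossing of the splice site passed with 1 peak per gene, that of highest fold (1.55), and with any overlap (1.32). The midpoint share passed for the interval 15 to 45 nt (0.77). The within-gene share of sites with a peak passed at 1000 nt (0.87) and at the p-value minimum (0.73), and was 1.01 with the longest intron at a site. The first-intron ratio passed at 1000 nt (0.77) and with any overlap (0.70). The coding ratio passed with the longest intron (1.92) and at 1000 nt (1.67), as did the alternative exon ratio (0.61 and 0.63), which was 1.01 at the fold minimum. At 5000 nt the fold was higher at the long introns in 53.2% of genes. The motif ratios that changed side, none of them past the threshold, were C or T runs with against without a peak (1.09 with the longest intron, 1.18 with any overlap), CTNAC with against without a peak at 1000 nt (0.97), CTNAC at long against shorter introns (0.94 at 1000 nt, 0.83 with a window of 100 nt), and G runs at long against shorter introns (1.63 at the fold minimum, 1.12 at the p-value minimum). The cause of these changes was not tested. Read depth is unknown and limits what an absent peak can show.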
